A study of Homo sapiens with 12 samples.

Results

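The transcripts of 10 human selenoprotein genes whose symbols begin with SELENO were measured in cells that received a mutant or a wild-type MSX1 plasmid. They are SELENOT, SELENOM, SELENOK, SELENOS, SELENOF, SELENOP, SELENOW, SELENOH, SELENOI and SELENON, and they make up 10 of the 63241 gene rows of the deposited table. They were taken by symbol and are not every SELENO gene: SELENOV is counted with the other selenoprotein genes below. The set was chosen by a measured value in these same libraries: the level of SELENOT, which was among the largest decreases with R157K and R157F. SELENOT is therefore described without a test, and tests are given for the other 9 genes. These were named by symbol, but the members were chosen with earlier results of these data known. The cells were HEPM, a line of human embryonic palatal mesenchyme, and poly(A) RNA was sequenced 6 h after plasmid transfection. MSX1 is a homeodomain transcription factor needed for palate and tooth development. In the 3 mutant groups, 1 arginine of the overexpressed MSX1 was replaced by serine (R157S), lysine (R157K) or phenylalanine (R157F). The comparison group overexpressed wild-type MSX1 (WT). Each of the 4 plasmids had 3 libraries, and every library came from transfected cells that carried an MSX1 plasmid on top of their own MSX1 gene. The promoter of the plasmids is not given in the sources used here. Whether the 3 libraries of a plasmid are separate cultures is not stated in the labels, so the spread behind each p-value may be technical.

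Selenoproteins contain selenocysteine, an amino acid that is encoded by UGA, a codon that otherwise stops translation. A hairpin in the untranslated end of the mRNA, the SECIS element, recruits SECISBP2 and the elongation factor EEFSEC, which deliver selenocysteinyl-tRNA to that UGA. In many selenoproteins the selenocysteine sits in a thioredoxin-like fold, close to a cysteine, and takes part in thiol redox reactions. When selenium is short, the UGA can be read as a premature stop, and some selenoprotein mRNAs are then lost to nonsense-mediated decay. Several members of the family work in the endoplasmic reticulum (ER), where they serve protein folding, the removal of misfolded proteins and calcium handling.

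The UGA codons set the family apart, so the coding sequence around them is shown for 7 of the genes, read 5′ to 3′ from the principal transcripts of GENCODE 29 (GRCh38). Capitals mark the UGA, written TGA, and a cysteine codon within the 3 codons before it.
SELENOT: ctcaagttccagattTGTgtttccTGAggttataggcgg
SELENOM: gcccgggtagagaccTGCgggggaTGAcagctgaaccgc
SELENOW: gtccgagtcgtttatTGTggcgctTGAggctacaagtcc
SELENOH: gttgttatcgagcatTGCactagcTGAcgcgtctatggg
SELENOF: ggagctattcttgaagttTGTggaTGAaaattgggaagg
SELENOK: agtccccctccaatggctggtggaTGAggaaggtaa
SELENOI: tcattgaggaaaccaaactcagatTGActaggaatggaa

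In SELENOT, SELENOM, SELENOW and SELENOH, 2 residues lie between the cysteine and the selenocysteine, the spacing of a thioredoxin-type redox centre. SELENOF has 1 residue between them. SELENOK and SELENOI have no cysteine in these positions. The selenocysteine of SELENOT is codon 49 of 196, counting the stop, at chr3:150622392-150622394 on the plus strand. In SELENOM it is codon 48 of 146 at chr22:31105951-31105953 on the minus strand, and in SELENOW codon 13 of 88 at chr19:47780732-47780734 on the plus strand. In SELENOH it is codon 44 of 123 at chr11:57741816-57741818 on the plus strand, and in SELENOF codon 96 of 166 at chr1:86880690-86880692 on the minus strand. SELENOK carries it near the end, at codon 92 of 95 (chr3:53885831-53885833, minus strand), and so does SELENOI, at codon 387 of 398 (chr2:26389068-26389070, plus strand). SELENOS has its selenocysteine at codon 188 of 190, and SELENOP has 10 in-frame TGA codons, the first at codon 59 of 382.

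Levels are TPM, a length-corrected share of each library's transcripts, from which sequencing depth cannot be read. Libraries held 20954 to 22295 genes above 0 and 13541 to 14016 genes at 1 TPM or more. WT replicate 2 stood apart, with the highest share of TPM from mitochondrially encoded genes (9.96%, where the lowest library had 5.31%) and the lowest share from ribosomal protein genes (4.62%, where the highest had 14%). Its removal also changes the spread that all comparisons share. Values without it are given where they change a call, or move a called change or a count of members by over 1.5 times. The 10 mesenchymal marker genes summed to between 14412 and 24365 TPM per library. The 6 epithelial markers summed to at most 1.3 TPM, with ESRP1 and GRHL2 at 0 in every library, and the 5 immune markers to at most 1.11 TPM, with CD3E at 0. The 4 skeletal muscle markers reached 6.87 TPM, with MYOD1 and MYOG at 0, the 5 endothelial markers 12.2 TPM and the 3 glial markers 1.93 TPM. MSX1 transcript, from plasmid and endogenous gene together, averaged 451 ± 168 TPM with R157S, 500.1 ± 146 with R157K, 872 ± 213 with R157F and 337 ± 111 with WT (SD, n = 3 each). The part of these unequal MSX1 levels in the values that follow was not tested.

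SELENOT (ENSG00000198843, chr3:150602875-150630445, plus strand) encodes a thioredoxin-like oxidoreductase of the ER membrane. Its levels were 131, 142 and 159 TPM with R157S. With R157K they were 43.9, 53.9 and 48.9 TPM, and with R157F 66.6, 67.9 and 58.5 TPM. With WT they were 252, 360 and 228 TPM. The 4 groups did not overlap: every R157K library was below every R157F library, those were below every R157S library, and WT was highest. Means were 144 ± 14.2 TPM with R157S, 48.9 ± 4.99 with R157K, 64.3 ± 5.07 with R157F and 279.8 ± 70.1 with WT (SD, n = 3 each), so the mean was 1.94-fold lower with R157S, 5.73-fold lower with R157K and 4.35-fold lower with R157F than with WT. In bulk RNA, fewer cells with a transcript and less of it per cell cannot be told apart.

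On the log2(TPM + 1) scale, SELENOT differed from WT by -0.93 with R157S, -2.47 with R157K and -2.08 with R157F (SE 0.15 each). Among the 14718 genes tested, ranked from the most negative change, it stood at 158 for R157S, 45 for R157K and 40 for R157F. The labels name each replicate number as a batch, which was read here as shared across plasmids. Between libraries of the same number the differences were -0.94, -1.34 and -0.51 for R157S. They were -2.50, -2.72 and -2.20 for R157K, and -1.91, -2.39 and -1.94 for R157F. Without WT replicate 2, which had the highest SELENOT level, the differences were -0.73, -2.28 and -1.88.

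SELENOT overlaps SERP1 on the opposite strand, and the strand setting of the authors' quantification is not given in the sources used here, so the level of SERP1 is set beside it. SERP1, a small protein of the ER translocation site, averaged 82.5 ± 2.03 TPM with R157S, 81.2 ± 4.66 with R157K, 72.3 ± 4.27 with R157F and 98.5 ± 25.4 with WT (SD, n = 3 each). Its changes of -0.22 for R157S (limma adjusted p = 0.251) and -0.25 for R157K (0.151) did not pass the test, and it fell by 0.41 with R157F (0.0266). Without WT replicate 2 the changes of SERP1 were -0.03 with R157S (0.874), -0.05 with R157K (0.649) and -0.22 with R157F (0.0714). The R157F change was then no longer called. The 2 SELENOT pseudogene rows of the table were at 0 TPM in every library.

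**Figure D1:**
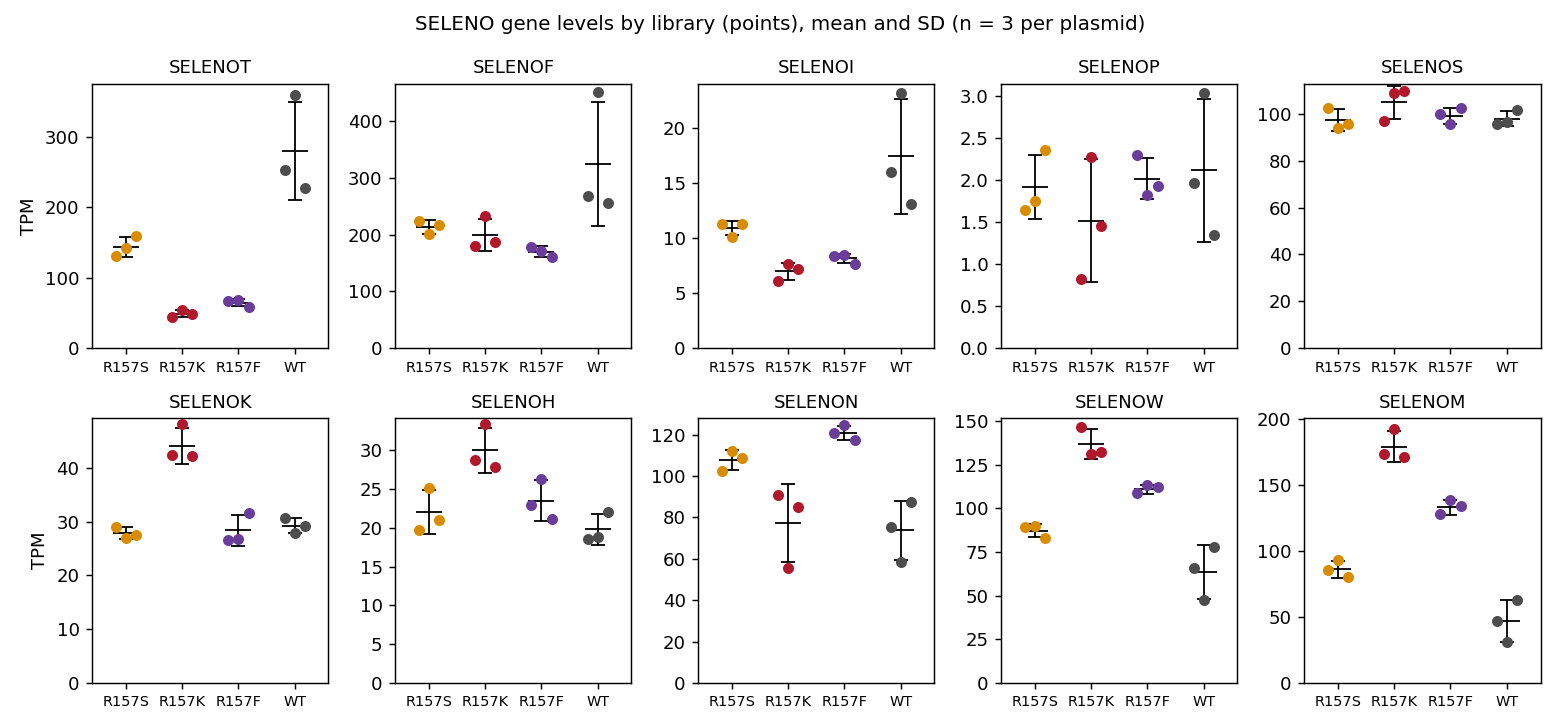
Level of each gene in TPM (vertical axis, from 0) in every library, with points for libraries and bars for the mean and SD of 3 libraries, for R157S, R157K, R157F and WT. SELENOT averaged 144, 48.9, 64.3 and 279.8 TPM in that order, while SELENOM averaged 86, 179, 133 and 46.7 TPM.

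SELENOM, SELENOW and SELENOH share with SELENOT the redox centre shown above. SELENOM (ENSG00000198832) encodes a thioredoxin-like protein of the ER lumen. It had 85.4, 92.8 and 79.9 TPM with R157S, 173, 192 and 171 TPM with R157K, 128, 138 and 134 TPM with R157F, and 46.6, 30.9 and 62.5 TPM with WT. No group overlapped another, with WT lowest, then R157S, R157F and R157K, which is the reverse of the order for SELENOT. Called here means an adjusted p under 0.05 in limma over all genes tested. SELENOM rose with all 3 mutants, by 0.92 with R157S (SE 0.19, adjusted p = 0.0165), 1.97 with R157K (3.54e-06) and 1.55 with R157F (0.000171). Leaving out WT replicate 2 gave changes of 0.66 (adjusted p = 0.0178), 1.71 (9.22e-07) and 1.29 (5.79e-05). The R157S call was lost without R157S replicate 2 (0.0775) or R157S replicate 3 (0.0595).

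SELENOW (ENSG00000178980), a small cytosolic protein of the same fold, had 89.1, 89.6 and 82.9 TPM with R157S, 147, 131 and 132 TPM with R157K, 109, 114 and 112 TPM with R157F, and 65.8, 47.3 and 78.1 TPM with WT. Its groups did not overlap either, and stood in the same order as those of SELENOM. Relative to WT it was 1.11 higher with R157K (SE 0.14, adjusted p = 2.89e-05) and 0.83 higher with R157F (0.000675). The rise of 0.47 with R157S (0.0392) was 0.28 and no longer called without WT replicate 2 (0.0851).

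SELENOH (ENSG00000211450), a nuclear member of the group, was at 19.8, 25.2 and 21 TPM with R157S, 28.8, 33.4 and 27.9 TPM with R157K, 23, 26.3 and 21.1 TPM with R157F, and 18.6, 18.8 and 22.1 TPM with WT. The R157K libraries lay above all others, and the remaining 3 groups overlapped. SELENOH rose with R157K by 0.57 (SE 0.13, adjusted p = 0.0017), while the changes of 0.14 with R157S (0.427) and 0.23 with R157F (0.137) did not pass the test. A same-strand neighbour that overlaps SELENOH, AP001931.1, reached at most 1.38 TPM. SELENOT and the 3 genes with its redox centre thus differed from WT in opposite directions with R157K. With GC and length trends removed, described below, these changes were -1.37 for SELENOT, 1.07 for SELENOM and 0.45 for SELENOW. SELENOH was then at 0.15 and not called (0.282).

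SELENOF, SELENOK and SELENOS belong to the ER machinery that folds glycoproteins or removes misfolded ones. SELENOF (ENSG00000183291), the partner of the folding sensor UGGT1, was at 224, 200.3 and 218 TPM with R157S, 179.9, 232 and 188 TPM with R157K, 179, 171 and 159.9 TPM with R157F, and 268, 451 and 256.5 TPM with WT. Every mutant library was below every WT library, and WT replicate 2 was far above the other two. SELENOF fell by 0.55 with R157S (SE 0.18, adjusted p = 0.0477), 0.66 with R157K (0.00645) and 0.89 with R157F (0.00156). Without WT replicate 2 the changes were -0.29 (adjusted p = 0.11), -0.40 (0.0067) and -0.62 (0.00083), so the R157S call was lost. Under median-ratio scaling the R157K change was -0.24 (0.295), and with GC and length trends taken out it was 0.13 (0.242), the opposite sign.

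SELENOK (ENSG00000113811), an ER membrane protein that works with the palmitoyltransferase ZDHHC6, was at 29.1, 27 and 27.6 TPM with R157S, 42.4, 48.1 and 42.2 TPM with R157K, 26.7, 26.8 and 31.7 TPM with R157F, and 30.8, 28 and 29.1 TPM with WT. The R157K libraries lay above all 9 others, which overlapped. SELENOK rose by 0.58 with R157K (SE 0.10, adjusted p = 0.000286), or by 0.55 without WT replicate 2 (0.000671). The changes with R157S (-0.07, adjusted p = 0.625) and R157F (-0.05, 0.699) did not pass the test, and with GC and length trends taken out both were positive (0.18, adjusted p = 0.253, and 0.41, 0.00785). The 3 SELENOK pseudogene rows were at 0 TPM in every library.

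SELENOS (ENSG00000131871), an ER membrane protein that links VCP to the derlins in retrotranslocation, was at 103, 93.9 and 95.8 TPM with R157S, 97.1, 109 and 109.8 TPM with R157K, 99.9, 95.6 and 103 TPM with R157F, and 95.9, 96.5 and 102 TPM with WT. All 4 groups overlapped, and the changes of -0.01, 0.10 and 0.02 with R157S, R157K and R157F did not pass the test (adjusted p = 0.942, 0.314 and 0.864, SE 0.08). With R157K it was called after median-ratio scaling (0.52, adjusted p = 0.00039) and after removal of GC and length trends (0.19, 0.031).

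SELENOI (ENSG00000138018) encodes ethanolamine phosphotransferase, which makes the phospholipid phosphatidylethanolamine. It was at 11.3, 10.1 and 11.2 TPM with R157S, 6.09, 7.62 and 7.2 TPM with R157K, 8.36, 8.42 and 7.66 TPM with R157F, and 15.9, 23.1 and 13 TPM with WT. The groups did not overlap and stood in the same order as for SELENOT, though R157K replicate 2 and R157F replicate 3 were nearly equal. SELENOI fell by 0.59 with R157S (SE 0.17, adjusted p = 0.0345), 1.17 with R157K (7.22e-05) and 0.97 with R157F (0.00072). Without WT replicate 2 the changes were -0.38 (adjusted p = 0.0921), -0.96 (5.45e-05) and -0.75 (0.0008), so the R157S call was lost. After removal of GC and length trends no change was called (-0.16, -0.06 and -0.24, adjusted p = 0.284, 0.614 and 0.0613).

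SELENON (ENSG00000162430), an ER membrane protein that senses ER calcium and is known for congenital myopathy, was at 103, 112 and 109 TPM with R157S, 90.7, 55.7 and 85.2 TPM with R157K, 121, 124 and 118 TPM with R157F, and 75.3, 58.7 and 87.3 TPM with WT. R157F and R157S lay above the other groups and apart from each other, while R157K and WT overlapped. SELENON rose by 0.56 with R157S (SE 0.17, adjusted p = 0.0415), and the rise with R157F was 0.72 (0.00389). Without WT replicate 2 these were 0.41 (adjusted p = 0.142) and 0.57 (0.0145). The R157K change of 0.05 did not pass the test (0.81), was 0.47 and called after median-ratio scaling (0.022), and was -0.10 without WT replicate 2 (0.621).

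SELENOP (ENSG00000250722), the secreted selenium carrier made mainly by liver, was the lowest of the 10 genes. It was at 1.65, 1.75 and 2.36 TPM with R157S, 0.82, 2.28 and 1.45 TPM with R157K, 2.3, 1.83 and 1.93 TPM with R157F, and 1.97, 3.04 and 1.35 TPM with WT. All groups overlapped, and the changes of -0.07, -0.32 and -0.01 did not pass the test (adjusted p = 0.849, 0.27 and 0.963, SE 0.24). Without WT replicate 2 these changes were 0.14, -0.11 and 0.19 (adjusted p = 0.752, 0.714 and 0.541). At this level the added 1 TPM understates fold changes. After removal of GC and length trends the signs turned, with 0.39 for R157S (adjusted p = 0.191), 0.58 for R157K (0.0178) and 0.72 for R157F (0.00979). SELENOP overlaps CCDC152 on the opposite strand, which reached at most 4.61 TPM.

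Counted over the 9 genes other than SELENOT, the 4-group F test called 7 of 9, all but SELENOS and SELENOP, where it called 70.8% of all genes tested. With R157S against WT, 5 of 9 were called, beside 20.4% of all genes. SELENOM, SELENOW and SELENON were higher, beside 7.60% of all genes called higher, and SELENOF and SELENOI were lower, beside 12.8% called lower. This count rested on single libraries: it was 1 without R157S replicate 1, WT replicate 1 or WT replicate 2, and 0 without R157S replicate 2 or R157S replicate 3. Libraries outside the comparison also moved it through the shared spread: it was 2 without R157K replicate 3 or any 1 R157F library, with SELENOW, SELENON and SELENOF no longer called. With R157K, 6 of 9 were called, beside 63.6% of all genes, which is close to that background. SELENOM, SELENOK, SELENOW and SELENOH were higher, beside 17.3% of all genes, and SELENOF and SELENOI were lower, beside 46.2%. With R157F, 5 of 9 were called, beside 58.2% of all genes. SELENOM, SELENOW and SELENON were higher, beside 24.4% of all genes, and SELENOF and SELENOI were lower, beside 33.8%. The R157K and R157F counts stayed at 6 and 5 when any 1 of the 12 libraries was left out. These 3 comparisons share the WT libraries.

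Median changes of the 9 genes were -0.01 for R157S, 0.10 for R157K and 0.02 for R157F, where the medians of all genes tested were -0.01, -0.34 and -0.08. The median over all genes shifted under median-ratio scaling by 0.02 for R157S, 0.34 for R157K and 0.09 for R157F. Relative to the median of all genes with R157K, SELENOT stood at -2.13, SELENOI at -0.83 and SELENOF at -0.32. On the same footing SELENOM stood at 2.31, SELENOW at 1.45, SELENOK at 0.92, SELENOH at 0.91, SELENOS at 0.44, SELENON at 0.39 and SELENOP at 0.02. Under that scaling the R157K split was 6 higher and 1 lower in place of 4 and 2, and the R157S split was 3 and 1 in place of 3 and 2. The shares of all genes called under that scaling are not given here, so these splits have no background beside them.

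**Figure D2:**
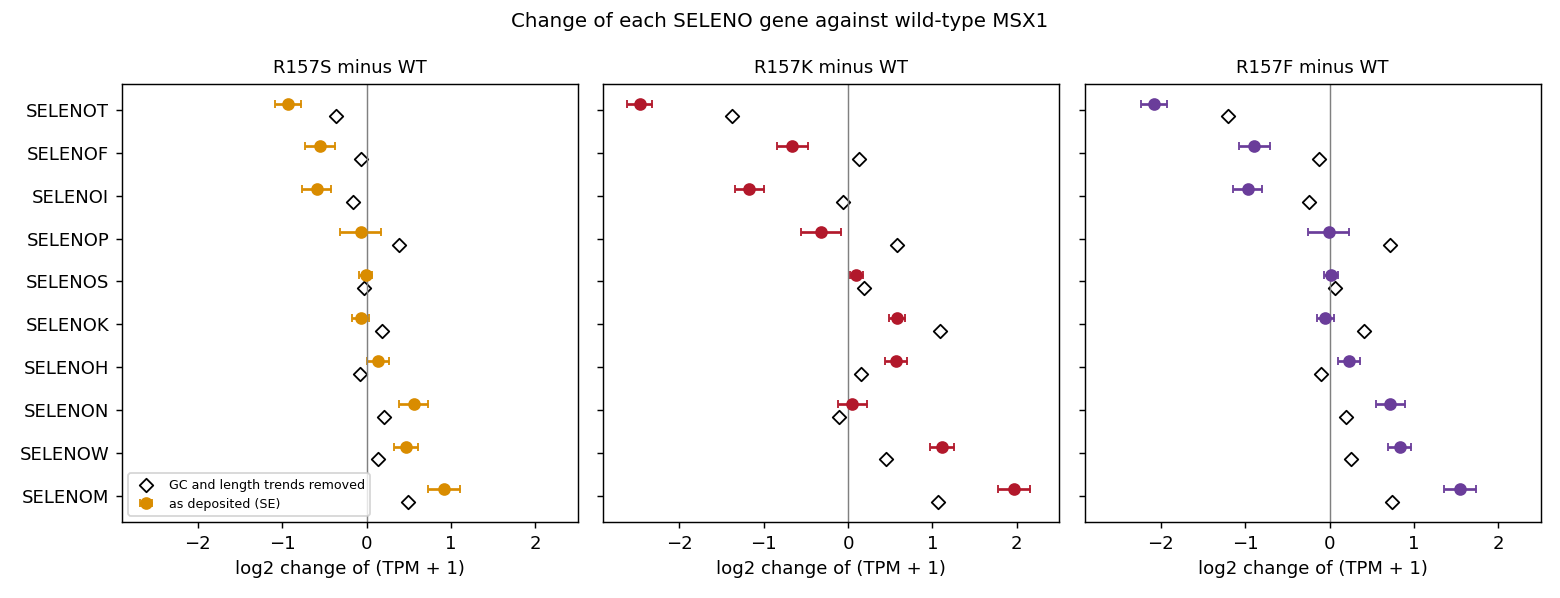
Change of each gene against WT on the log2(TPM + 1) scale (horizontal axis) for R157S, R157K and R157F, as filled points with SE bars for the deposited TPM and as open diamonds once trends with transcript GC content and length were removed. With R157K, SELENOT was at -2.47 as deposited and at -1.37 after that removal, SELENOM at 1.97 and 1.07, and SELENOF at -0.66 and 0.13.

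The genes that were lower with the mutants had AT-rich transcripts, and most of those that rose had GC-rich transcripts. SELENOT had the lowest GC content of the members, 35.2%, and only 1.5% of genes tested were lower. The median of genes tested was 48.7%. SELENOF at 36.8% and SELENOI at 38.3% came next among the genes that fell, with SELENOP at 38.1% between them. SELENOM at 63%, SELENON at 59.8% and SELENOW at 58.6% had the highest, followed by SELENOH at 54.7%, SELENOS at 49.1% and SELENOK at 42.8%. All genes tested showed a like gradient. In the quintile of genes with the lowest GC content (27.8% to 41.3%) the median changes for R157S, R157K and R157F were -0.46, -1.03 and -0.76. In the quintile with the highest GC content (58.4% to 75.6%) they were 0.42, 0.51 and 0.72. SELENOI, the longest transcript at 8101 bases, and SELENOT at 3469 were above the median length of 2880.0 bases. The quintile of longest transcripts had median changes of -0.17, -0.78 and -0.37, and the quintile of shortest 0.10, 0.19 and 0.17.

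SELENOT lay below the median of its GC quintile in each comparison, at -0.93 where that median was -0.46 with R157S, at -2.47 where it was -1.03 with R157K, and at -2.08 where it was -0.76 with R157F. It was chosen for its decreases with R157K and R157F, so its place below those medians followed from the choice. The R157S comparison shares the WT libraries with them. Once GC and length trends were removed from each library, SELENOT differed from WT by -0.36 with R157S, -1.37 with R157K and -1.20 with R157F. SELENOM remained called in all 3 comparisons, with changes of 0.49 (adjusted p = 0.0199), 1.07 (1.25e-05) and 0.74 (0.000607). SELENOW remained called with R157K (0.45, adjusted p = 0.000148) and R157F (0.26, 0.00971) but not with R157S (0.14, 0.188). SELENOK had a larger change with R157K, 1.09 (6.61e-06). SELENOF, SELENOI and SELENON were called in none of the 3 comparisons after that removal, and SELENOH with R157K was at 0.15 (0.282). The split of calls was then 1 higher and 0 lower with R157S, 5 and 0 with R157K, and 4 and 0 with R157F. The shares of all genes called with trends removed are not given here, so these counts have no background beside them.

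**Figure D3:**
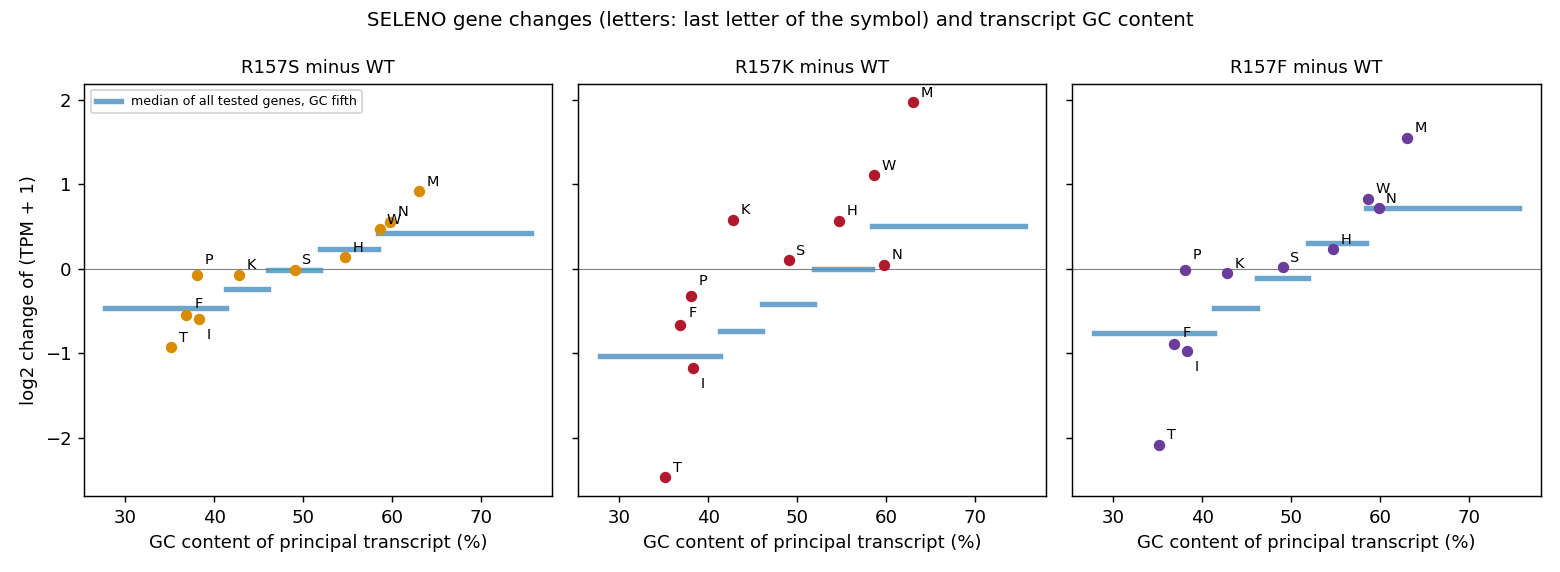
Change against WT on the log2(TPM + 1) scale (vertical axis) by GC content of the principal transcript in percent (horizontal axis) for R157S, R157K and R157F, with the genes as points marked by the last letter of the symbol and bars for the median of all genes tested in each GC quintile. With R157K, SELENOT (T) at 35.2% GC lay at -2.47 where the bar of its quintile is at -1.03, and SELENOM (M) at 63% GC lay at 1.97 where the bar is at 0.51.

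Between mutants, R157S against R157K gave 6 of 9 called, beside 50.1% of all genes. SELENOI and SELENON were higher with R157S, beside 42.2% of all genes called higher. SELENOM, SELENOK, SELENOW and SELENOH were lower, beside 7.90% of all genes called lower. The change of SELENOM was -1.05 (SE 0.19, adjusted p = 0.000637), that of SELENOK -0.65 (0.000271), that of SELENOW -0.64 (0.00289) and that of SELENOH -0.44 (0.013). Without R157S replicate 1 the SELENOH change was -0.37 (0.0564). With GC and length trends removed the SELENOH change was -0.23 and not called (0.139), while SELENOM at -0.58 (0.00137) and SELENOW at -0.31 (0.003) were smaller but called. SELENOI was higher by 0.58 (0.0136), or by 0.50 without R157K replicate 1 (0.0551), and stood at 0.23 (0.333) after median-ratio scaling and at -0.10 (0.425) with GC and length trends removed. SELENON was higher by 0.51 (0.0277), with 0.29 without R157K replicate 2 (0.106), 0.48 without R157S replicate 2 (0.0772) and 0.50 without R157S replicate 3 (0.0669), and stood at 0.12 after median-ratio scaling (0.58) and at 0.31 with trends removed (0.0056). That scaling shifted the all-gene median by -0.32 and left a split of 0 higher and 5 lower, with no share of all genes called to set beside it. SELENOT, described without a test, was 2.95 times as high with R157S as with R157K.

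R157S against R157F gave 0 of 9 called by limma, beside 5.42% of all genes, with 4.31% called higher and 1.11% called lower. At an unadjusted p under 0.05 there were 3 genes, and a limma fit to those 2 groups alone called 4. SELENOM, for example, differed by -0.63 (SE 0.19, adjusted p = 0.067), with every R157S library below every R157F library. The count of 0 rested on WT replicates 2 and 3, which enter through the shared spread. It was 4 without WT replicate 2, with SELENOM (-0.63, adjusted p = 0.00361) and SELENOW (-0.35, 0.0124) lower with R157S and SELENOF (0.33, 0.0305) and SELENOI (0.38, 0.0375) higher. Without WT replicate 3 it was 1, SELENOM (0.0196). SELENOT was 2.24 times as high with R157S as with R157F.

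R157K against R157F gave 2 of 9 called, beside 29.7% of all genes. SELENOK was higher with R157K by 0.63 (SE 0.10, adjusted p = 0.00143), beside 3.30% of all genes called higher. SELENON was lower by 0.67 (0.0136), beside 26.4% called lower, and was at -0.36 (0.186) after median-ratio scaling, at -0.30 (0.0162) with GC and length trends removed and at -0.46 without R157K replicate 2. The count was 5 without WT replicate 2, with SELENOM (0.42, adjusted p = 0.00867), SELENOW (0.29, 0.0153) and SELENOH (0.34, 0.0424) also higher with R157K. Without WT replicate 3 it was 4, with SELENOM (0.0307) and SELENOH (0.0487) also called. Median-ratio scaling shifted the all-gene median by 0.27 and gave 5 higher and 0 lower, with no share of all genes called to set beside that split. SELENOT, described without a test, was 0.39 lower with R157K than with R157F on the log2(TPM + 1) scale, and the libraries did not overlap. That difference was -0.08 after median-ratio scaling and -0.16 with GC and length trends removed.

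The order of levels among the members differed between plasmids. SELENOF had the highest mean in each of the 4 groups and SELENOP the lowest. SELENOT was in second place with R157S and with WT, and in sixth with R157K and with R157F. In WT the ranges of SELENOF and SELENOT overlapped, as did those of SELENON, SELENOW and SELENOM in neighbouring places. With R157K, the ranges of SELENOF and SELENOM overlapped at the top, and those of SELENOT and SELENOK in the middle. SELENOT made up 18% ± 1.65 of the summed TPM of the 10 genes with R157S, 5.88% ± 0.415 with R157K, 8.44% ± 0.531 with R157F and 29% ± 3.14 with WT (SD, n = 3 each). The sum itself was 799 ± 6.43 TPM, 829.6 ± 31.1, 761 ± 13.5 and 956 ± 139.7 in the same order. Without SELENOT the other 9 genes summed to 655 ± 9.31 TPM with R157S, 781 ± 26.7 with R157K, 697 ± 8.85 with R157F and 676 ± 72.5 with WT, and the WT range of 619 to 758 TPM held both the R157S and the R157F means.

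The distance from the selenocysteine codon to the last exon junction bears on how a UGA read as a stop is handled. It is given here beside the R157K changes. SELENOT had the greatest distance of the single-UGA genes, 470 bases upstream of the last junction, followed by SELENOW at 243, SELENOH at 136 and SELENOM at 135. SELENOF had 78 bases, SELENOS 13 and SELENOK 5, and the codon of SELENOI lies in the last exon. In that order, the R157K changes against WT were -2.47, 1.11, 0.57, 1.97, -0.66, 0.10, 0.58 and -1.17. With GC and length trends removed, SELENOF was at 0.13 and SELENOI at -0.06. Decay of these transcripts was not measured, and a link between distance and change was not tested.

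Genes whose profile was nearest to that of SELENOT were found by the root mean square difference of centred log2(TPM + 1) values over the 12 libraries, among 10482 genes with a mean of at least 5 TPM. TRAM1, a protein of the ER translocation channel, was nearest at 0.142. It averaged 378 ± 27.3 TPM with R157S, 143 ± 23.7 with R157K, 175 ± 6.14 with R157F and 650.2 ± 229 with WT (SD, n = 3 each). Next were SOAT1, the cholesterol-esterifying enzyme of the ER, at 0.176, the mitochondrial kinase PDK1 at 0.182, the nucleotide sugar transporter family gene SLC35A5 at 0.185 and the palmitoyltransferase ZDHHC2 at 0.226. SOAT1 averaged 80 ± 5.69 TPM with R157S, 20.8 ± 1.21 with R157K, 35.1 ± 4.12 with R157F and 126 ± 18.5 with WT. These 5 genes had transcripts of 36.7% to 39.8% GC. Among the members, SELENOI was nearest to SELENOT at 0.541, with 1008 genes closer, then SELENOF at 0.712 with 3203 closer. Of the members compared, SELENOM was farthest at 1.75. SELENOP, with a mean under 5 TPM, was not compared.

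Of 15 other selenoprotein genes, 10 passed the filter on low values, and the 5 that did not (GPX2, GPX6, DIO1, DIO3 and SELENOV) reached at most 0.55 TPM. Against WT, 2 rose and 1 fell with R157S, 4 rose and 2 fell with R157K, and 5 rose and 1 fell with R157F, with median changes of 0.37, 0.34 and 0.48. These counts of 10 stand beside 7.60% of all genes called higher and 12.8% lower with R157S, 17.3% and 46.2% with R157K, and 24.4% and 33.8% with R157F. GPX4, the peroxidase that clears lipid hydroperoxides, averaged 218 ± 15.6 TPM with R157S, 312 ± 14.2 with R157K, 274 ± 8.53 with R157F and 138 ± 21.5 with WT. It rose by 0.66 (SE 0.11, adjusted p = 0.0102), 1.18 (2.72e-06) and 0.99 (0.000114) with R157S, R157K and R157F. GPX1, the cytosolic glutathione peroxidase, rose by 0.60 (0.0242), 1.12 (3.71e-05) and 1.03 (0.000312). Its R157S change was 0.40 without WT replicate 2 (0.0406). TXNRD2, the mitochondrial thioredoxin reductase, rose with R157K by 0.75 (0.00715) and with R157F by 0.72 (0.0105), or by 0.46 and 0.44 without WT replicate 2 (0.013 and 0.0224). TXNRD1, its cytosolic counterpart, fell by 0.33 (0.02), 0.86 (2.16e-06) and 0.52 (0.000304), and had 200.2 ± 2.88 TPM with R157K and 365 ± 23.7 TPM with WT. Once GC and length trends were removed, GPX4 was called in none of the 3 comparisons (0.23, 0.25 and 0.18), nor was TXNRD1 (-0.09, -0.04 and -0.03). GPX1 was then at 0.14 (0.107), 0.17 (0.0184) and 0.17 (0.0283), and TXNRD2 was not called with R157K (0.18, 0.283) or R157F (-0.03, 0.905).

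All 13 genes listed for making selenocysteine and inserting it passed the filter. Against WT, 1 rose and 3 fell with R157S, 2 rose and 9 fell with R157K, and 3 rose and 7 fell with R157F, with median changes of -0.16, -0.69 and -0.30 where all genes had -0.01, -0.34 and -0.08. Any call was made for 20.4%, 63.6% and 58.2% of all genes in these comparisons, with 12.8%, 46.2% and 33.8% called lower. Those called higher were 7.60%, 17.3% and 24.4%. SECISBP2, which binds the SECIS element, averaged 22.4 ± 0.898 TPM with R157S, 14.1 ± 0.935 with R157K, 21.1 ± 0.474 with R157F and 29.1 ± 3.33 with WT. It fell by 0.36 (SE 0.10, adjusted p = 0.0343), 1.00 (6.61e-06) and 0.44 (0.00347), and its paralogue SECISBP2L fell by 0.58 (0.0234), 1.32 (7.47e-06) and 0.91 (0.000407). Without WT replicate 2 the R157S changes were -0.28 (0.093) and -0.42 (0.0537), no longer called. NCL, a nucleolar protein that also binds selenoprotein mRNAs, fell by 0.72 with R157K (1.19e-05) and by 0.28 with R157F (0.0124). RPL30, a ribosomal protein that also binds the SECIS element, rose by 1.28 with R157K (1.79e-06) and 0.31 with R157F (0.0267, or 0.23 with 0.0781 without WT replicate 2). The share of TPM from all ribosomal protein genes was highest in R157K replicate 2 (14%) and lowest in WT replicate 2 (4.62%). The part of that difference in the change of RPL30 was not tested. With GC and length trends removed, SECISBP2 and SECISBP2L stood at -0.32 (0.00237) and -0.25 (0.0061) with R157K, and NCL at -0.09 (0.352). With R157S they were not called (-0.22, 0.0676, and -0.18, 0.103). With R157F, SECISBP2 (-0.10, 0.291) and NCL (-0.02, 0.905) were not called, SECISBP2L was at -0.21 (0.0243) and RPL30 at 0.54 (0.00151).

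For selenium supply, 3 of 4 genes passed the filter, and 3 of 3 fell with R157K and 2 of 3 with R157F, beside 46.2% and 33.8% of all genes called lower. With R157S limma called 0 of 3, beside 20.4% of all genes, with 1 at an unadjusted p under 0.05. LRP8, a receptor for SELENOP, fell by 1.03 with R157K (SE 0.11, adjusted p = 7.32e-06) and 0.37 with R157F (0.0119). It averaged 19.2 ± 1.91 TPM with R157S, 11 ± 0.841 with R157K, 18 ± 0.996 with R157F and 23.6 ± 1.78 with WT. PRDX6, a peroxiredoxin with a role in selenium transfer, fell by 0.42 with R157K (0.00126) and 0.41 with R157F (0.00217). SCLY, which frees selenium from selenocysteine, fell by 0.43 with R157K (0.0331). After median-ratio scaling the R157K changes were -0.64 for LRP8, -0.00 for PRDX6 and -0.05 for SCLY. Once GC and length trends were removed, LRP8 was at -0.35 (0.0192) with R157K and -0.14 (0.339) with R157F, PRDX6 at 0.01 (0.953) and -0.10 (0.445), and SCLY at -0.60 (0.00073) with R157K.

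**Figure D4:**
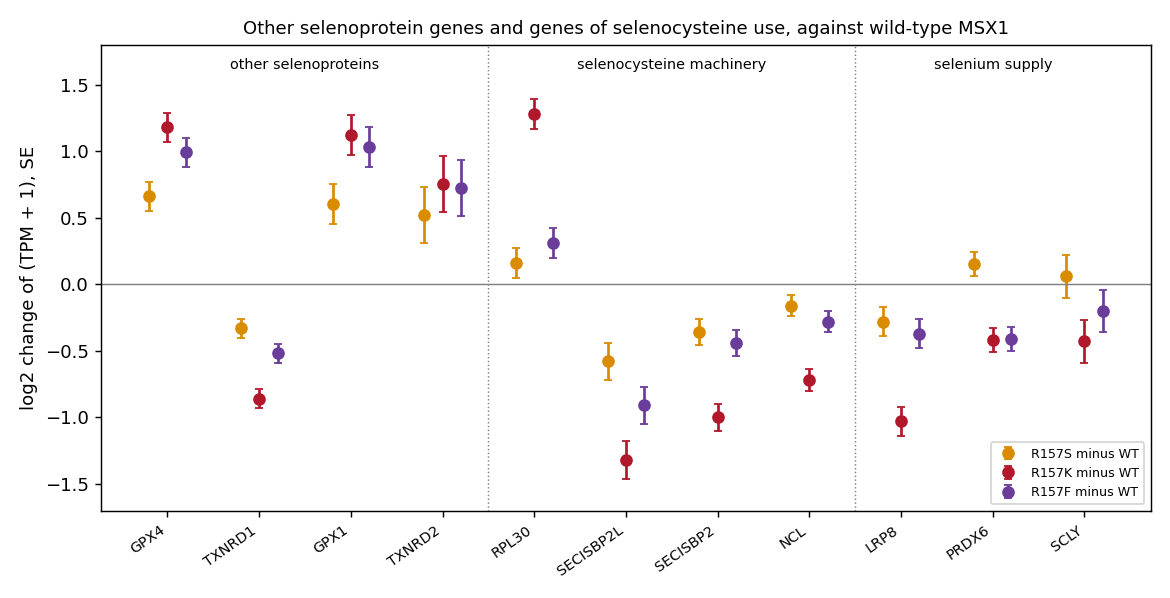
Change against WT on the log2(TPM + 1) scale (vertical axis, points with SE bars) for R157S, R157K and R157F in 4 other selenoprotein genes, 4 genes of selenocysteine synthesis and insertion and 3 genes of selenium supply. With R157K, GPX4 was at 1.18 and RPL30 at 1.28, while SECISBP2L was at -1.32 and LRP8 at -1.03.

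The partners of the ER members were also followed. Of 15 genes of glycoprotein quality control and retrotranslocation, in which SELENOF, SELENOK and SELENOS act, 14 were tested. With R157S, 2 rose and 1 fell, with R157K 1 rose and 10 fell, and with R157F 2 rose and 9 fell, with median changes of -0.08, -0.95 and -0.51. The medians of all genes tested were -0.01, -0.34 and -0.08. All genes were called lower in 12.8%, 46.2% and 33.8% of cases and higher in 7.60%, 17.3% and 24.4%. UGGT1, the partner of SELENOF, fell by 0.93 with R157K (SE 0.11, adjusted p = 1.3e-05) and 0.50 with R157F (0.00217). ZDHHC6, the partner of SELENOK, averaged 30.9 ± 1.02 TPM with R157S, 19.6 ± 2.28 with R157K, 24.4 ± 0.407 with R157F and 41.7 ± 5.99 with WT. It fell by 1.05 with R157K (1.03e-05), the comparison in which SELENOK rose. ZDHHC6 also fell by 0.74 with R157F (0.000444) and by 0.41 with R157S (0.0343), where SELENOK was not called. Without WT replicate 2 its R157S change was -0.31 (0.0998), no longer called. With GC and length trends removed it was at -0.21 with R157F (0.0454) and at -0.12 with R157S (0.323). SYVN1, the ubiquitin ligase of retrotranslocation, fell by 1.25 with R157K (1.42e-05), and CANX, the chaperone calnexin, by 0.97 (2.28e-06). With GC and length trends removed, SYVN1 stood at -1.42 (1.59e-05) and ZDHHC6 at -0.33 (0.0029), whereas UGGT1 at -0.10 (0.322) and CANX at -0.04 (0.578) were not called, nor was UGGT1 with R157F (-0.13, 0.229).

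Of 12 genes of phosphatidylethanolamine and phosphatidylcholine synthesis, the pathway of SELENOI, 0 rose and 1 fell with R157S, 1 rose and 7 fell with R157K, and 4 rose and 5 fell with R157F. Their median changes were -0.08, -0.61 and -0.31, where all genes had -0.01, -0.34 and -0.08. These counts of 12 stand beside 12.8%, 46.2% and 33.8% of all genes called lower. Shares called higher were 7.60%, 17.3% and 24.4%. PTDSS1, a phosphatidylserine synthase, had the largest change of the 4 genes named by the rule, and fell by 1.61 with R157K (SE 0.11, adjusted p = 7.35e-07) and 0.94 with R157F (0.000141). It averaged 112 ± 8.74 TPM with R157S, 42.9 ± 4.63 with R157K, 68.6 ± 4.23 with R157F and 132 ± 10 with WT. CEPT1, the enzyme closest to SELENOI in function, fell by 0.43 (0.0378), 0.99 (3.03e-05) and 0.88 (0.000312) with R157S, R157K and R157F, and without WT replicate 2 its R157S change was -0.33 (0.117). With GC and length trends removed, PTDSS1 remained lower with R157K (-0.98, adjusted p = 1.89e-06) and R157F (-0.72, 9.68e-05), and CEPT1 was not called (0.01, -0.10 and -0.17, adjusted p = 0.963, 0.404 and 0.213).

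Of 10 ER calcium genes, listed for SELENON, 7 were tested, and 1 rose and 3 fell with R157K, and 1 rose and 2 fell with R157F, beside 63.6% and 58.2% of all genes called. With R157S limma called 0 of 7, beside 20.4% of all genes, with 0 at an unadjusted p under 0.05. ATP2A2, the calcium pump that SELENON acts on, averaged 109 ± 13.4 TPM with R157K and 195 ± 6.71 TPM with WT. It fell by 0.84 with R157K (SE 0.10, adjusted p = 1.29e-05) and 0.31 with R157F (0.0168). ATP2A2 with GC and length trends removed was at -0.18 (0.0455) with R157K and at -0.02 with R157F, no longer called (0.872). Of 17 thiol redox genes without selenocysteine, 3 rose and 2 fell with R157S, 8 rose and 5 fell with R157K, and 4 rose and 5 fell with R157F, where 7.60%, 17.3% and 24.4% of all genes were called higher and 12.8%, 46.2% and 33.8% lower. TXN, thioredoxin itself, averaged 444 ± 35.2 TPM with R157S, 831 ± 156 with R157K, 466 ± 31 with R157F and 543 ± 33.4 with WT, and rose with R157K by 0.60 (0.000908). PRDX5, a peroxiredoxin, rose by 1.23 with R157K (1.03e-05), and TXNIP, the thioredoxin inhibitor, fell by 0.96 (4.21e-06). With GC and length trends removed, TXN was at 0.89 (4.19e-06), PRDX5 at 0.38 (0.00414) and TXNIP at -0.21 (0.0228) with R157K.

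Promoters of 9 of the 10 genes, all but SELENOM, were found in a RefSeq set of 35116 windows on GRCh38.p14. Each window ran from 250 bases before to 50 after a transcript start, and both strands were searched. TAATTG, the core of sites bound by MSX homeodomains, occurred in 7.38% of all windows and in that of SELENOP alone among these 9 genes. The core of the antioxidant response element, TGACNNNGC, occurred in 13.3% of windows, and in those of SELENOK, SELENON and SELENOP. The ER stress response element occurred in 0.0769% of windows and in 0 of those of these 9 genes. A match is a string of letters and not evidence of binding, and binding was not measured here.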

How the data were processed

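Poly(A) RNA of 12 libraries (4 plasmids, 3 libraries each) was compared. The authors deposited a single table of TPM per gene and library; RSEM is named, without a version, in the submitters' processing notes, and the sources used here do not give the aligner, genome build, annotation or strand setting. The labels' protocols name a stranded poly(A) library kit. TPM summed to between 999999.03 and 1000000.89 per library, 20601 of 63241 rows had no symbol, and 0 pairs of libraries were identical. Depth is not kept in TPM, so no counting interval was computed.

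The members and gene lists were chosen with earlier results of these data known. Values were analysed as log2(TPM + 1), which understates changes of low genes. The 14718 genes that reached 1 TPM in 3 or more libraries, all 10 members among them, were fitted with limma 3.58.1 in R 4.3.3, with 1 coefficient per plasmid, all 12 libraries, 8 residual degrees of freedom and a mean trend in the empirical Bayes step. Adjusted p-values are Benjamini-Hochberg values over all genes tested, and a gene was called under 0.05; each change is the first group minus the second. The step was tested on simulated data. Counts of members are over the 9 genes other than SELENOT. Shares of all genes called are those of the main fit and are not given for the alternatives below.

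Named genes are the 10 members, up to 4 tested genes of each pathway list with the lowest p of the 4-group F test, and the 5 genes with profiles nearest to SELENOT. Some codon sequences are not reported here. Rows named as member pseudogenes numbered 6, all at 0 TPM. GC content, length, coordinates and codons come from GENCODE 29 on GRCh38, and the authors may have used another annotation. GC and length trends were removed per library by natural splines with 5 degrees of freedom over 14220 genes. The labels name the replicate number as a batch, which was read here as pairing the samples. Deviations of same-numbered libraries from their group means correlated at -0.128 to 0.393 (18 pairs, median -0.0215). Those of other pairs correlated at -0.354 to 0.316 (36 pairs, median 0.0109), so the median was no higher for same-numbered libraries. Other alternatives were a pseudocount of 0.1, no filter, at least 5 TPM in 3 libraries, median-ratio scaling, the replicate block, only the 2 groups compared, no mean trend in the moderation, and leaving out each library in turn.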

Additional observations from a re-analysis of the deposited data

How the results depend on the processing

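Counts of called members stayed within 1.5 times under all alternatives for R157K and R157F against WT, for R157S against R157K and for the 4-group test. With the replicate block, the counts for R157S, R157K and R157F against WT were 5, 6 and 5 of 9, and no call of a member changed. For R157S against WT the count of 5 was 1 with no filter, 1 with GC and length trends removed, 1 with the replicate block and trends removed, 0 with only the 2 groups, 2 with no mean trend, and 0 to 5 with 1 library left out. With only the 2 groups, R157S against R157F gave 4 and R157K against R157F gave 4, and median-ratio scaling gave 5 for R157K against R157F. With 1 library left out, R157S against R157F ranged over 0 to 4 and R157K against R157F over 2 to 5, the highest without WT replicate 2. The 4-group test called 70.8% of all genes in the main fit. Its share under the other settings is not given here. A lower list count there cannot be told from fewer calls over all genes. In that test other selenoproteins gave 6 of 10, and 3 with no filter, 3 with trends removed and 2 with the block and trends removed. Selenocysteine genes gave 12 of 13, and 7 after median-ratio scaling, 5 with trends removed and 4 with the block as well. Quality control genes gave 14 of 14, then 8 and 7 under those 2 settings. Phospholipid genes gave 10 of 12, then 6 and 5, and ER calcium genes 4 of 7, then 2 and 2, and 2 with no filter. With 1 library left out the ranges were 4 to 6, 11 to 12, 12 to 14, 7 to 11 and 2 to 4 in that order, 2 to 3 for selenium supply and 12 to 16 for thiol redox genes.

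Signs were followed for changes against WT and for called changes between mutants. With trends removed, with or without the block, they turned for SELENOK with R157S (0.18) and R157F (0.41), SELENOF with R157K (0.13), SELENOP with R157S (0.39), R157K (0.58) and R157F (0.72), SELENOH with R157S (-0.08) and R157F (-0.10), SELENON with R157K (-0.11), all against WT, and SELENOI between R157S and R157K (-0.10). After median-ratio scaling they turned for SELENOK with R157F (0.06), SELENOS with R157S (0.02) and SELENOP with R157F (0.06). With 1 library left out they turned for SELENOS with R157S (-0.05 to 0.02, with 0.00 without R157S replicate 3) and R157F (-0.00 to 0.05), SELENOP with R157S (-0.25 to 0.14) and R157F (-0.20 to 0.19, with 0.03 and 0.01 without R157F replicates 2 and 3), and SELENON with R157K (-0.10 to 0.27, with -0.08 and -0.03 without R157K replicates 1 and 3). The cause was not tested. Depth is unknown from TPM, so counting error behind low genes such as SELENOP could not be given.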
